A study of Aquilegia coerulea with 32 samples.

Results

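The late fallers were 77 of the 30023 loci in the files: genes of the young *Aquilegia coerulea* flower whose mean level was kept from s1 to s3 and was lower at s4. They were chosen on the readout itself. With S1 to S4 the mean TPM (transcript abundance per length, brought to a common total for each library) of the 8 libraries of a stage, a member had an S3 of at least 5 TPM, S2 and S3 of at least 0.7 times S1, an S4 of at most 0.65 times the lowest of S1, S2 and S3, and at least 6 of 8 s4 libraries below every s3 library. Of 14246 loci with an S3 of at least 5 TPM, 79 met these conditions. The *KNOX-like* gene *AqKXL3* and the auxin response factor *AqMP* were left out because the study names them. Stage levels and the s4 libraries therefore chose the members, and the falls below are descriptions of the selected genes and not findings about them.

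All samples were wild-type plants of the cultivar 'Kiragami', vernalized before flowering, and from each dissected axillary bud 3 sepals had been removed, so that the remaining sepals and the young organs were sampled with the floral meristem. At s1 stamen primordia were being initiated, at s2 stamen and staminode initiation was over, at s3 carpel primordia had risen at the rim while apex cells remained, and at s4 the carpels had taken up the apex and staminodes had begun to widen. Every stage was represented by 8 libraries, 32 in all, each from buds of its own. Fewer plants than buds were used, so that some libraries shared a plant. Which ones is not given by the labels, and the libraries were treated as independent in every test. A library of s1, s2 or s3 pooled 2 buds of different plants and a library of s4 held 1 bud, so that the number of buds and the step from s3 to s4 cannot be told apart. In whole buds, fewer cells of a type and less RNA per cell cannot be told apart either.

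In a determinate flower the meristem stops producing organs once the carpels form, and the cells of the apex are used up. Auxin works in this tissue through a short chain: TIR1-type F-box proteins perceive it and mark Aux/IAA repressors for degradation, auxin response factors (ARF proteins) then act on their targets, and GH3 enzymes couple free auxin to amino acids and so lower its level. Ubiquitin ligases and the related modifier SUMO act in the same cells by changing the lifetime or activity of other proteins.

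Library totals ran from 21502103 to 31647297 estimated counts, and the biological coefficient of variation over all genes tested was 31.2%. The s4 libraries of replicates 3 and 4 stood apart in the levels of the members. The median member was at 76.9% of its s3 mean in s4 replicate 3 and at 69.0% in s4 replicate 4, against 43.2% to 52.0% in the other 6 s4 libraries. Of the 77 members, 25 were below every s3 library in s4 replicate 3 and 39 in s4 replicate 4, against 69 to 77 in the other 6. Values are therefore also given without this pair, which was singled out for these very levels.

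Before s4 the members were nearly level, which the rule in part required. The label of genes that drop only at s4 still holds for the means more loosely than its wording. S3 was between 70.3% and 227% of S1, with a median of 87.6%, and 18 members had a higher mean at s3 than at s1. The highest stage mean was that of s1 in 40 members, of s2 in 28 and of s3 in 9. The median log2 fold change of the members was -0.01 from s1 to s2, -0.12 from s2 to s3 and -0.16 from s1 to s3. At s4 the mean lay at 24.4% to 64.8% of the lowest earlier stage mean (median 59.6%), and 13 members reached 50% or less. S3 itself spanned 5.01 to 1377 TPM, with a median of 29.6. Transcript length did not set the members apart by its median, which was 1661 bases in the members and 1658 in all loci with an S3 of at least 5 TPM.

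**Figure D1:**
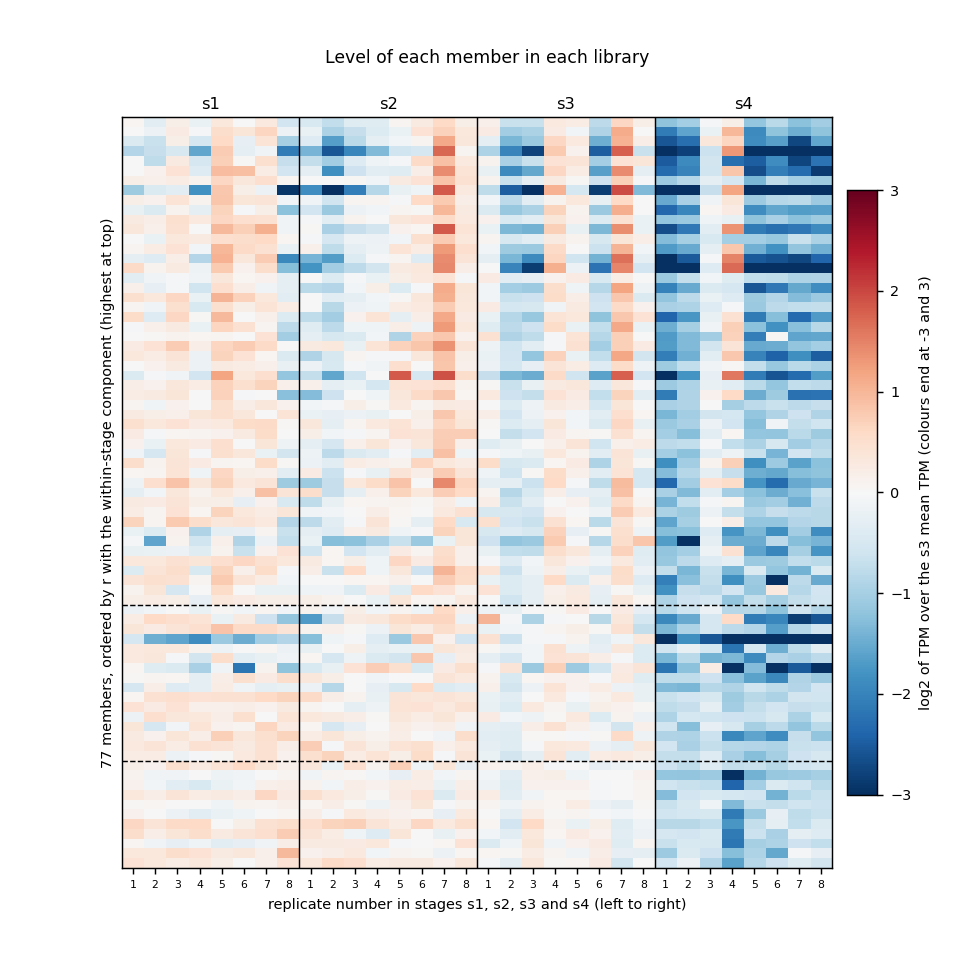
Level of the 77 members (lines) in the 32 libraries (columns, by stage and replicate) as the log2 of TPM over the s3 mean TPM of the same member, with colours ending at -3 and 3. Members are ordered by their correlation with the within-stage component, and dashed lines part those with r above 0.5, from 0 to 0.5 and below 0; s4 replicate 4 is near or above the s3 mean in many members at the top and at its lowest in members at the bottom.

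In the edgeR fit over all 32 libraries, in which a call needs an adjusted p under 0.05 and a log2 fold change of at least 1 in size, 10 members were called lower at s4 than at s3, where 0.308% of the 20477 genes tested were called. At any fold, that is at an adjusted p under 0.05 without the fold threshold, the number was 47, against 1.71% of all genes. From s1 to s4, 28 members were called (1.94% of all genes) and 59 at any fold (10%), and from s2 to s4, 22 (1.09%) and 55 (5.96%). The median member changed by -0.70 on the log2 scale from s3 to s4, by -0.90 from s2 and by -0.91 from s1, beside 0.01, 0.00 and 0.01 for all genes tested. These comparisons share the s4 libraries and were used by the rule, so that nothing is read from the excess. All 8 s4 libraries were below all 8 of s3 in 14 members (0.391% of all genes), below all of s1 in 31 (3.27%), below all of s2 in 25 (1.29%) and below all 24 earlier libraries in 11 (0.283%). In a fit without s4 replicates 3 and 4 the s3 to s4 calls were 39 with the fold threshold (2.67% of all genes) and 77 without it (13.8%), with a median change of -1.03. From s1 to s4 they were 54 (4.01%) and 77 (19.8%), and from s2 to s4 47 (3.44%) and 76 (17.9%). Before s4 only *Aqcoe5G279900* was called higher from s1 to s3 (3.15% of all genes, and 5.55% at any fold, where it was again the 1 member). The rule held S2 and S3 at 0.7 times S1 or more. Lower calls with the fold threshold from s1 to s2 or s3 were thus nearly excluded in advance, and nothing is read from their absence. No member was called lower from s1 to s3 with the fold threshold by edgeR or DESeq2 (0.606%; 14 had an unadjusted p under 0.05), and 4 were lower at any fold (2.41%): *Aqcoe5G452400*, *Aqcoe7G005500*, *Aqcoe2G391400* and *Aqcoe6G223800*. No member was called in either direction from s1 to s2 (0.107% lower and 0.488% higher of all genes, and at any fold 0.332% and 0.776%) or from s2 to s3 (0.0537% and 0.259%, and at any fold 0.230% and 0.400%). In these 2 steps 2 and 8 members had an unadjusted p under 0.05 and a lower level, 3 and 0 a higher one, and DESeq2 called 0.

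Inside the stages s1, s2 and s3 the libraries also differed, and many members moved together. The rule used part of this spread, since it set the s4 libraries against the lowest s3 library, so that the values below are not independent of the choice of members and nothing is read from their excess over other genes. When each gene's stage mean was removed, a single component held 33.8% of the remaining variance over these 24 libraries, and the mean deviation of the members followed it with r = 0.96. The mean pairwise r between members was 0.30, against 0.00083 between all genes of the same minimum level. The r of a single member with the component ran from -0.74 to 0.97 with a median of 0.71. It was above 0.5 in 50 members (64.9%), where 31.8% of 14240 genes with an S3 of at least 5 TPM reached it, and below 0 in 11, where 49.6% of these genes were. All of these correlations are over the same 24 libraries, which also share their depth and normalization, and they are given as a description.

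These 3 sets of members differed in what the s4 libraries showed. Among the 50 members with r above 0.5, the median level in the 6 other s4 libraries was 35.7% to 47.2% of the s3 mean, while s4 replicate 3 stood at 83.5% and s4 replicate 4 at 104%. Libraries of earlier stages were spread as well in these members, from 68.3% to 174% at s2 and from 63.3% to 154% at s3. In the 11 members with r below 0, the 6 libraries lay at 55.1% to 67.7%, s4 replicate 3 at 71.8% and s4 replicate 4 at only 29.8%. Replicate 4 was thus the highest s4 library of 30 of the 50 and the lowest of 8 of the 11. The 16 members between these sets stood at 46.9% to 60.5% in the 6 libraries, at 70.0% in replicate 3 and at 49.7% in replicate 4.

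The number of s4 libraries below s3, which the rule used in part, also varied between the sets. All 8 s4 libraries were below every s3 library in 1 of the 50 members with r above 0.5, in 8 of the 16 and in 5 of the 11. Every member had a lower mean at s4 than at s3, and an adjusted p under 0.05 in the edgeR fit (lower in 1.71% of all genes) was reached by 21 of the 50, 15 of the 16 and 11 of the 11, with median log2 fold changes of -0.71, -0.77 and -0.67 and median standard errors of 0.23, 0.15 and 0.15. In earlier stages the highest library was s2 replicate 7 in 48 members and s3 replicate 7 in 42, and the lowest was s3 replicate 2 in 36. The labels name no batch, and the source of the component was not tested.

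**Figure D2:**
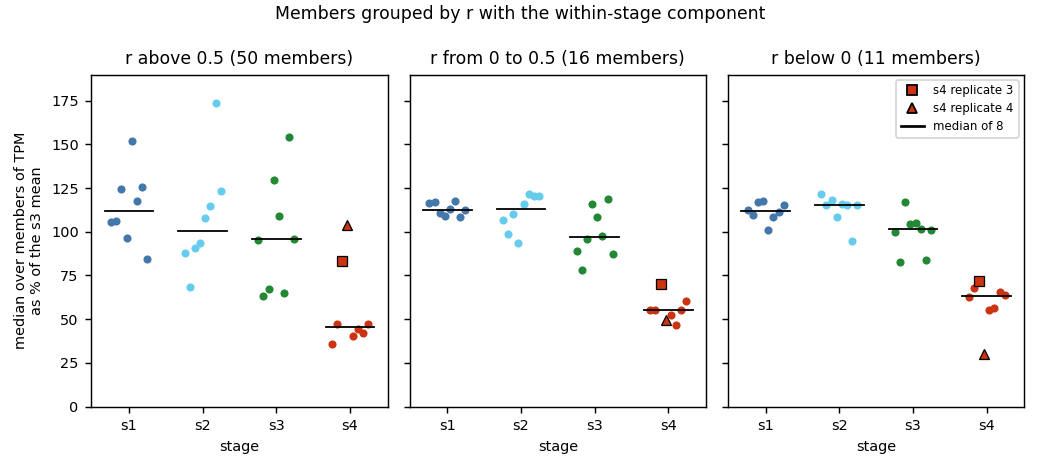
Median over the members of TPM as a percentage of the s3 mean, 1 point per library, for members with r above 0.5 (50), from 0 to 0.5 (16) and below 0 (11). Black lines are medians of 8 libraries; s4 replicate 4 (triangle) lies at 104% in the first panel and at 29.8% in the last.

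An Arabidopsis top hit was listed by the study's tables for 40 members, 3 of them with no name or description, and these 3 and the other 37 are given by locus alone. These tables hold genes that the study found to differ between stages or to be hubs, so that the groups below were partly chosen on these libraries. By their locus identifiers, chromosome 5 held 22.1% of the members and 17.3% of all loci with an S3 of at least 5 TPM, chromosome 2 18.2% and 15.4%, chromosome 3 18.2% and 15.2%, chromosome 6 14.3% and 11.5%, chromosome 7 13.0% and 15.9%, chromosome 1 9.09% and 18.3%, and chromosome 4 5.19% and 5.67%. Positions and strands are not given by the files.

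The lowest s4 level relative to s3 was that of an RNA-binding gene. *Aqcoe5G279900* is a homolog of *MCT1*, which encodes an RRM-only protein of the Mei2-like family. Its level ran from 5.46 to 14.1 TPM at s1 (median 8.20), from 8.29 to 34.9 at s2 (median 16.7), between 12.8 and 27.4 at s3 (median 19.3) and from 0.23 to 5.61 at s4 (median 1.68). All s4 libraries were below all s3 libraries, while the highest s4 value overlapped the lowest of s1. On the log2 scale it changed by 1.202 from s1 to s3 and by -3.17 from s3 to s4 (SE 0.36). The neighbouring locus *Aqcoe5G280000* has the same top hit and is not a member. Its means had the same order of stages in part, with 36.0 ± 9.24, 82.6 ± 30.5, 111 ± 20.2 and 41.2 ± 16.7 TPM from s1 to s4 (SD, n = 8 each), and its log2 change of -1.38 from s3 to s4 passed the test (SE 0.22, adjusted p 0.00018 with edgeR). Its s4 mean was above that of s1, unlike that of the member. Kallisto divides reads between similar transcripts by estimate, so that the split between these neighbours is less certain than their sum.

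Among transcription regulators, 4 members matched the keywords of this group: *Aqcoe2G353000*, *Aqcoe6G100200*, *Aqcoe2G390200* and *Aqcoe3G000600*. Of all 160 loci of the group that were tested, 10 were called lower and 16 higher from s3 to s4, with a median of -0.06. *Aqcoe2G353000*, a homolog of *IDD12* of the INDETERMINATE DOMAIN zinc finger family, was level through s3. It spanned 53.8 to 65.1 TPM at s1 (median 58.1), 50.5 to 70.0 at s2 (median 59.3) and 47.4 to 67.6 at s3 (median 60.7). At s4 it spanned 7.19 to 30.2 TPM (median 27.2), so that every s4 library was below all 24 others, with s4 replicate 4 the lowest. Its log2 fold change from s3 to s4 was -1.23 (SE 0.15) and stayed between -1.28 and -1.10 over all alternatives.

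*Aqcoe6G100200*, an AP2/B3-like gene of a DNA-binding family, had the highest level of these 4. Its libraries ran from 144.9 to 217 TPM at s1 (median 167), from 121.5 to 191 at s2 (median 149.8), between 101.7 and 194 at s3 (median 130.5) and from 34.3 to 84.7 at s4 (median 64.0). No s4 library reached the lowest earlier library, and s3 replicate 7 alone lay far above the rest of its stage. From s3 to s4 it changed by -1.09 (log2, SE 0.16), which became -0.98 and lost its call without s3 replicate 7. *Aqcoe2G390200*, a second AP2/B3-like member, was lower in level, with means of 12.6 ± 3.56, 12.9 ± 5.08, 10.7 ± 3.0998 and 5.79 ± 1.71 TPM from s1 to s4 (SD, n = 8 each).

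Of 4 other loci with the same top hit as *Aqcoe2G390200*, *Aqcoe7G373900* had the highest level, with 57.9 ± 21.1, 122 ± 15.2, 118 ± 31.2 and 73.1 ± 29.7 TPM in the same order, and did not pass the test from s3 to s4 (log2 fold change -0.68, SE 0.28, edgeR adjusted p 0.19). *Aqcoe3G167000* had 17.3 ± 3.53, 11.4 ± 2.82, 7.71 ± 1.60 and 6.56 ± 0.88 TPM, so that most of the difference between its s1 and s4 means lay before s3.

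A pair of regulators of organ shape ran against the within-stage component, and they were picked for description after their values had been seen. *Aqcoe3G000600* is a homolog of *WOX1*, a homeobox gene of blade and petal outgrowth in Arabidopsis. It had 7.15 ± 1.02, 7.49 ± 0.92, 5.31 ± 1.38 and 3.19 ± 0.82 TPM in stage order, with r = -0.46. *Aqcoe6G257900*, a homolog of *STY1*, which promotes auxin synthesis and style formation in Arabidopsis, went from 26.9 ± 5.33 through 20.9 ± 2.08 and 19.9 ± 2.58 to 12.3 ± 4.29 TPM (SD, n = 8 each), with r = -0.70. The other *STY1* homolog, *Aqcoe5G181200*, was below it in mean at every stage, with 17.1 ± 2.85, 11.1 ± 1.58, 8.26 ± 1.74 and 5.58 ± 1.46 TPM, and was lower at s4 than at s3 (log2 fold change -0.51, edgeR adjusted p 0.036).

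*Aqcoe6G287400*, a homolog of the nitrogen-responsive regulator *LBD39*, spread widely with the component. It spanned 58.1 to 125 TPM at s1, 42.1 to 143 at s2 and 35.3 to 176 at s3. At s4 the median was 20.9 TPM and the highest library 138 TPM, so that the range overlapped all earlier stages, and r was 0.83. It too was picked after its values had been seen.

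The auxin annotations of the members fell on several steps of the pathway. Members were *Aqcoe2G298100*, a *GH3.9* homolog, *Aqcoe4G269800*, a *GH3.5* homolog, *Aqcoe2G310400*, a *TIR1* homolog, and *Aqcoe7G284000*, an *ARF19* homolog. Of 24 tested loci that the tables annotate with auxin terms, 3 were called lower and 0 higher from s3 to s4 with edgeR (7 and 5 at an unadjusted p under 0.05, 3 and 0 with DESeq2), and 1 of the 3 was a member, *Aqcoe2G298100*. From s1 to s4, loci of this auxin list were called in both directions, among the higher ones homologs of Aux/IAA, auxin efflux and *SAUR*-like genes. The *IAA14* homolog *Aqcoe2G360200* was higher at s4 than at s3 at any fold (log2 fold change 0.49, edgeR adjusted p 0.038). No trend of the pathway is therefore read from the members. The hormone group as a whole had 42 tested loci, 3 of them called lower and 1 higher, with a median of -0.30.

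*Aqcoe2G298100* was the 1 of these 4 with no overlap between s4 and the earlier stages. Its libraries spanned 54.6 to 98.7 TPM at s1 (median 75.3), 56.5 to 97.1 at s2 (median 59.7), 42.2 to 87.4 at s3 (median 48.4) and 5.38 to 35.1 at s4 (median 22.0). Every s4 library lay below every earlier one. Its log2 fold change was -1.34 from s3 to s4 and -1.67 from s1 to s4 (SE 0.24 for each), and the first of these stayed between -1.47 and -1.19 over all alternatives.

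*Aqcoe4G269800* reached higher levels with a far wider spread. It spanned 180.1 to 404 TPM at s1 (median 254), 97.7 to 695 at s2 (median 199), 71.9 to 503 at s3 (median 165) and 30.6 to 486 at s4 (median 43.8). At s4 the 6 other libraries lay between 30.6 and 51.7 TPM, below every s3 library, while s4 replicate 3 had 154 and s4 replicate 4 had 486 TPM, above 7 of the 8 s3 libraries. It changed by -0.68 from s3 to s4 (log2, SE 0.52), a value that ran from -2.16 without s4 replicates 3 and 4 to -0.29 without s3 replicate 7. Its r with the component was 0.92 and that of *Aqcoe2G298100* 0.55. A further family member outside the set, the *GH3.1* homolog *Aqcoe5G214900*, was called lower from s3 to s4 (log2 fold change -1.85), with means of 13.2, 5.23, 2.92 and 0.75 TPM from s1 to s4.

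The receptor and the response factor moved over a narrower range. *Aqcoe2G310400* spanned 63.8 to 106 TPM at s1 (median 89.6), 55.5 to 103 at s2 (median 79.7), 50.04 to 95.6 at s3 (median 68.0) and 29.4 to 63.0 at s4 (median 32.4). In 6 s4 libraries it lay between 29.4 and 35.2 TPM, while s4 replicates 3 and 4 had 63.0 and 58.9 and overlapped s3. Its change was -0.75 on the log2 scale (SE 0.17), and -1.08 without that pair. *Aqcoe7G284000* spanned 42.3 to 85.2 TPM at s3 (median 67.3) and 30.3 to 57.7 at s4 (median 38.6), with s4 replicates 3 and 4 again the highest, and its log2 fold change was -0.65 (SE 0.15). From s1, where it spanned 74.0 to 109 TPM, the change to s4 was -0.99 (SE 0.16).

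A transporter tied to auxin compounds, chosen after its values had been seen, showed the same order of stages, in which the rule had set the low s4 level. *Aqcoe5G452400* is a homolog of *PDR9*, an exporter of auxin-like compounds in Arabidopsis roots. Its means were 10.2 ± 1.36, 8.32 ± 1.24, 7.22 ± 1.59 and 3.88 ± 0.93 TPM (SD, n = 8 each), and it was 1 of the 4 members that were already lower from s1 to s3 at any fold. *Aqcoe2G254400*, with the same top hit and a far lower level, went the other way, with 0.64 ± 0.32, 0.90 ± 0.43, 1.32 ± 0.67 and 1.61 ± 1.06 TPM. Its log2 fold change from s1 to s4 was 1.41 (edgeR adjusted p 0.0031).

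**Figure D3:**
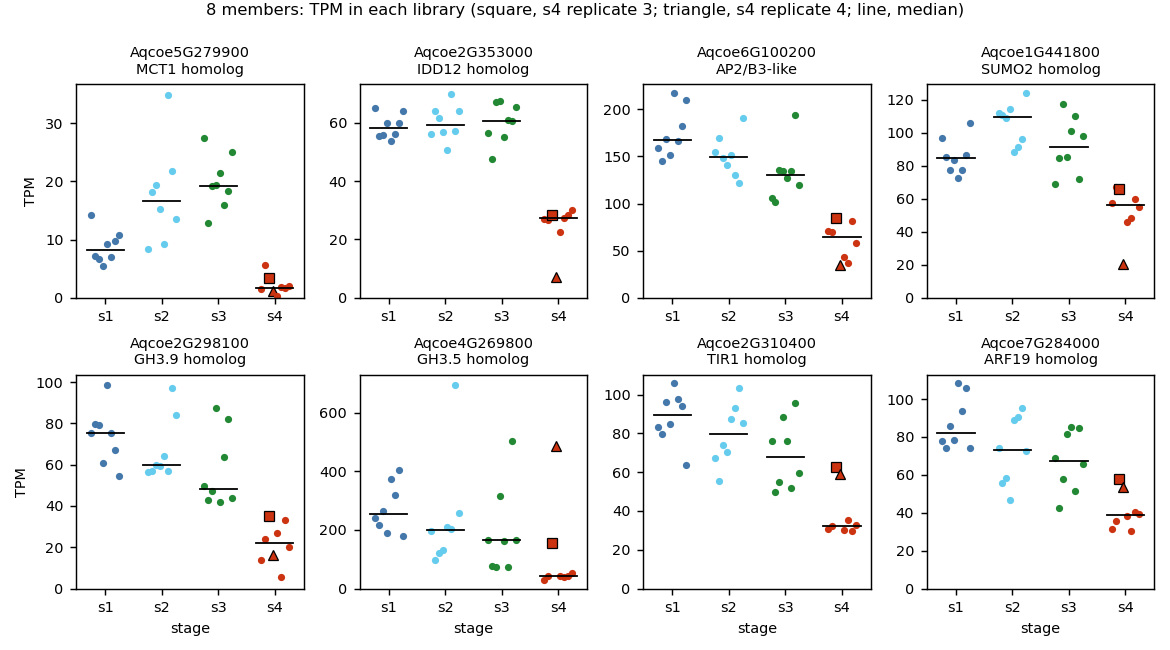
TPM of 8 members in each library at s1 to s4, with black lines for the median of 8 libraries. The homologs of *MCT1* and *IDD12* and the AP2/B3-like gene have no s4 library as high as the lowest s3 library, whereas s4 replicates 3 (square) and 4 (triangle) reach the s3 range in the homologs of *GH3.5*, *TIR1* and *ARF19*.

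Among the keyword groups, that of ubiquitin, SUMO and proteolysis held the most members, 7 in all. They were *Aqcoe1G441800*, *Aqcoe2G310400* (above), *Aqcoe2G333100*, *Aqcoe3G311800*, *Aqcoe5G015600*, *Aqcoe7G317600* and *Aqcoe1G264400*. The groups rest on the study's tables of stage-differing and hub genes, so that nothing is read from this count. Of the 82 tested loci of this group, 3 were called lower and 6 higher from s3 to s4, with a median of 0.47. *Aqcoe1G441800*, a homolog of the protein modifier *SUMO2*, spanned 72.8 to 106 TPM at s1 (median 84.5), 88.3 to 124 at s2 (median 109.8), 68.8 to 118 at s3 (median 91.5) and 20.4 to 67.3 at s4 (median 56.4). No s4 library reached an earlier one, and s4 replicate 4 was lowest. Its change was -0.78 on the log2 scale (SE 0.15), and r with the component was -0.63.

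The second *SUMO2* homolog, *Aqcoe2G063200*, is not a member and was several times more abundant. Its mean was lower at each stage in turn, with 593 ± 62.7, 503 ± 74.4, 350.3 ± 68.9 and 175 ± 46.2 TPM, and its log2 change of -0.97 from s3 to s4 passed the test (SE 0.14, adjusted p 2.7e-05 with edgeR). The member had its highest mean at s2 and its more abundant paralog at s1.

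The other genes of this group were lower in level. *Aqcoe7G317600*, an F-box gene with a DUF295 domain, had 15.2 ± 1.61, 13.4 ± 3.86, 12.5 ± 2.85 and 6.89 ± 1.41 TPM. Next to it, *Aqcoe7G317700*, with the same top hit, had 12.9 ± 1.74, 10.7 ± 2.22, 8.99 ± 2.15 and 5.38 ± 1.62 TPM and missed the rule, since its s3 mean was under 0.7 times that of s1. *Aqcoe3G311800*, a RING/U-box gene of the kind that acts as a ubiquitin ligase, had 7.70 ± 1.46 and 3.01 ± 1.83 TPM at s1 and s4, with s4 replicate 4 at 7.25 TPM and the other 7 at 1.74 to 3.80. Of the remaining members of the group, picked after their values had been seen, *Aqcoe1G264400* is a homolog of *PHO2*, an E2 enzyme of phosphate homeostasis, with 14.4 ± 3.04, 14.7 ± 4.13, 12.9 ± 3.77 and 6.41 ± 2.16 TPM, and *Aqcoe5G015600*, an F-box associated gene, had 11.8 ± 1.67, 13.2 ± 2.99, 10.4 ± 2.61 and 6.09 ± 2.32 TPM (SD, n = 8 each).

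*Aqcoe2G333100*, an aspartyl protease gene, was the least even of the group. It spanned 6.91 to 91.4 TPM at s1, 4.75 to 187 at s2, 4.85 to 201 at s3 and 1.40 to 119 at s4. The 6 other s4 libraries held 1.40 to 3.30 TPM, s4 replicate 3 held 32.6 and s4 replicate 4 held 119, and their mean without that pair was 4.54% of the s3 mean, the lowest of any member. With all libraries the log2 fold change was -1.21 (SE 0.88), without the pair -4.44, and without s3 replicate 7 -0.43.

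The only member in the group of protein kinases and receptors was *Aqcoe1G136700*, a homolog of *EMS1*/*EXS*, a receptor kinase that sets cell fates in the Arabidopsis anther. It spanned 37.1 to 54.4 TPM at s1 (median 43.9), 24.5 to 42.0 at s2 (median 33.7), 25.6 to 40.0 at s3 (median 31.99) and 7.41 to 26.8 at s4 (median 22.2), with s4 replicate 4 lowest. Its s4 range overlapped s3 in 1 library, and the log2 fold change was -0.59 (SE 0.15). *AqEXS* (*Aqcoe2G426800*), with the same top hit, went the other way, with 4.94 ± 1.21, 4.37 ± 0.67, 9.37 ± 2.63 and 31.0 ± 12.3 TPM from s1 to s4 and a rise of 1.79 on the log2 scale from s3 (SE 0.21, edgeR adjusted p 1.6e-06). The member had the higher mean until s3 and the lower at s4.

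**Figure D4:**
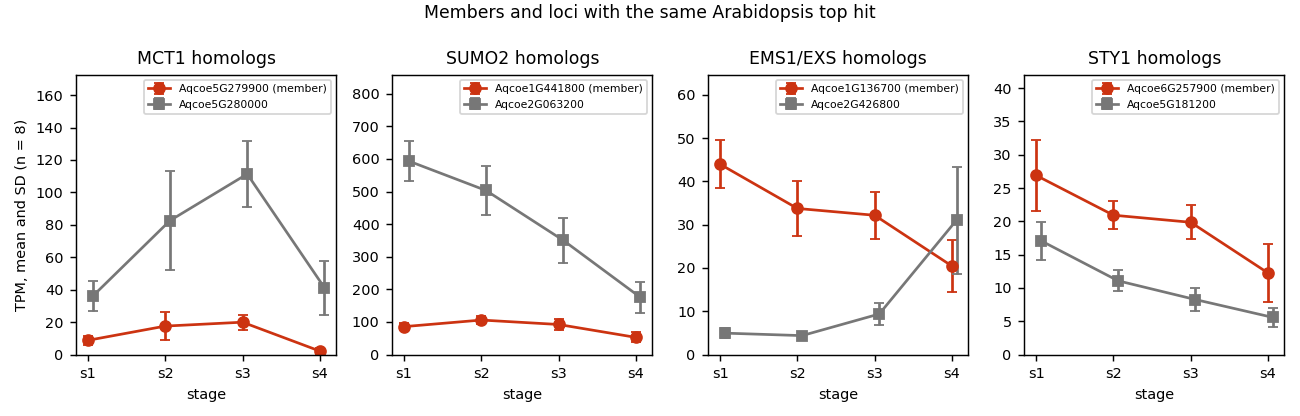
Mean TPM and SD over 8 libraries at s1 to s4 for 4 members (red) and for a locus outside the set with the same Arabidopsis top hit (grey). Both homologs of *MCT1* have their highest mean at s3, the *SUMO2* and *STY1* homologs outside the set decline from s1, and *AqEXS* rises from 9.37 to 31.0 TPM from s3 to s4 while the member declines.

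Transporters held 2 members of 78 tested loci, of which 3 were called lower and 7 higher from s3 to s4, with a median of 0.66. *Aqcoe3G111200*, of the MtN21/EamA-like transporter family, had 8.27 ± 2.12, 7.93 ± 2.86, 8.12 ± 1.96 and 3.69 ± 0.93 TPM (SD, n = 8 each), and its highest s4 library (4.71 TPM) was below the lowest of all earlier ones (5.54 TPM). Its change was -1.12 on the log2 scale (SE 0.21). Both of its neighbours in the annotation order, *Aqcoe3G111100* and *Aqcoe3G111300*, were members as well, the first with 5.54 ± 1.18 and 3.504 ± 1.49 TPM at s3 and s4 and the second with 5.61 ± 1.17 and 3.05 ± 0.59. Within stages over the 24 earlier libraries, *Aqcoe3G111200* followed them with r = 0.53 and r = 0.71. *Aqcoe3G414100*, a homolog of the vacuolar iron carrier *VIT1*, had 32.8 ± 4.65, 38.4 ± 5.91, 29.6 ± 6.92 and 17.7 ± 3.43 TPM, the highest mean being that of s2.

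Other neighbouring members moved even more closely together. *Aqcoe2G406600*, a homolog of *CER2*, which is needed for the long chains of cuticular wax in Arabidopsis, spanned 73.0 to 269 TPM at s1, 79.3 to 340.0 at s2, 78.1 to 364 at s3 and 33.2 to 202 at s4. Its neighbour *Aqcoe2G406700*, an unannotated transcript of 249 bases, spanned 15.9 to 64.4 TPM at s3 and 7.04 to 50.7 at s4, and the pair had r = 0.90 within stages. In both, s4 replicates 3 and 4 were the highest s4 libraries and lay inside the s3 range. *Aqcoe3G247900* and *Aqcoe3G248000* had r = 0.83, the first with 19.99 ± 1.99 and 12.1 ± 3.75 TPM at s3 and s4 and the second with 39.3 ± 4.36 and 22.4 ± 6.61, and here s4 replicate 4 was the lowest of its stage. Adjacent loci can share reads by estimate, and whether that adds to these correlations was not tested.

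The lipid and cuticle, sugar and cell wall, and oxidoreductase groups each held 2 members, of 87, 125 and 185 tested loci. Of all 20477 genes tested, 77 were members. The groups hold only loci of the study's tables, so that nothing is read from these shares. *Aqcoe2G270900* was placed in both the sugar and the oxidoreductase group by the keywords of its description, Galactose oxidase/kelch repeat. *Aqcoe2G391400*, a C2-domain gene, had 89.3 ± 6.86, 79.99 ± 14.4, 66.8 ± 12.3 and 39.5 ± 9.29 TPM. *Aqcoe3G114000*, a homolog of the trehalose phosphate synthase gene *TPS9*, had 16.9 ± 6.33, 14.6 ± 9.95, 13.8 ± 11.3 and 6.25 ± 7.71 TPM, and its s4 libraries were 1.89 to 3.43 TPM in 6 cases, 9.12 in s4 replicate 3 and 24.5 in s4 replicate 4. *Aqcoe7G005500*, of the Rossmann-fold NAD(P)-binding family, was even, with 15.9 ± 1.11, 16.0 ± 2.65, 12.6 ± 2.64 and 7.36 ± 0.76 TPM, and no s4 library (highest 8.46) reached an earlier one (lowest 9.78). The same held for the kelch-repeat gene *Aqcoe2G270900*, with 29.9 ± 3.11, 27.8 ± 4.86, 24.1 ± 2.65 and 14.2 ± 3.19 TPM (SD, n = 8 each). From s3 to s4, 2 of 87 lipid and cuticle loci and 5 of 185 oxidoreductase loci were called lower with edgeR and 10 and 16 higher, and the 6 calls among 125 sugar and cell wall loci were all higher.

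Of the other annotated members, *Aqcoe5G157100*, a homolog of *MEE60*, a gene found by arrested embryos in Arabidopsis, had 50.1 ± 11.9, 52.9 ± 26.1, 50.5 ± 30.7 and 19.3 ± 11.04 TPM. It changed by -1.33 (log2, SE 0.33), and by -1.03 without s3 replicate 7, where the call was lost. *Aqcoe2G264600*, with an Agenet domain of the kind found in chromatin proteins, had 7.30 ± 3.097, 11.9 ± 3.63, 10.2 ± 4.44 and 3.43 ± 3.66 TPM. Its s4 libraries ran from 0.87 to 4.38 TPM apart from s4 replicate 3, at 11.9 TPM, and its change of -1.53 (SE 0.42) lost its call in 9 of 39 alternatives. *Aqcoe5G286900*, a homolog of the cold and salt responsive *RCI2B*, had 121 ± 57.8 and 71.4 ± 62.1 TPM at s3 and s4, with s4 replicates 3 and 4 at 163 and 177 TPM and the other 6 at 23.51 to 58.9. *Aqcoe4G028700*, a DUF641 gene, had 83.4 ± 27.0 and 46.9 ± 12.03 TPM at s3 and s4, and *Aqcoe5G343100*, a leucine-rich repeat gene, had 144 ± 79.6 and 89.0 ± 85.7.

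Some annotated members outside the groups, picked after their values had been seen, carried nuclear or cytoskeletal names. *Aqcoe7G007100*, a homolog of *ABIL2* of the actin-regulating SCAR/WAVE complex, had 17.9 ± 3.46, 16.1 ± 4.86, 14.7 ± 3.33 and 7.79 ± 1.53 TPM in stage order. *Aqcoe1G423900*, a homolog of *DDB2*, which recognises ultraviolet damage in DNA, had 22.4 ± 6.69, 19.2 ± 6.92, 16.7 ± 7.06 and 9.52 ± 2.75, and *Aqcoe5G037100*, a homolog of the light signalling gene *TZP*, had 41.2 ± 13.0, 40.7 ± 16.6, 38.2 ± 14.6 and 22.2 ± 18.2.

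For 40 members no name or description was given. Their S3 ran from 5.01 to 1377 TPM with a median of 24.8, against a median of 32.2 in the 37 described members. The s4 mean was 26.9% of the lowest earlier mean at the least, with a median of 62.7%, and log2 fold changes from s3 to s4 lay between -1.84 and -0.54 with a median of -0.66, against -0.77 in the described members. In 5 of the 40, all 8 s4 libraries were below every s3 library (0.391% of all genes). From s3 to s4, 3 were called lower (0.308%) and 22 were lower at any fold (1.71%). Their r with the within-stage component was above 0.5 in 27 and below 0 in 5. Descriptions were given only for genes that the study listed as differing between stages or as hubs. Nothing is therefore read from the differences between described and other members.

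Several of the most abundant members were among these. *Aqcoe3G341100* alone made up a large share of the summed TPM of the set: it spanned 359.6 to 2849 TPM at s1 (median 1348), 431 to 3655 at s2 (median 1204), 365 to 4301 at s3 (median 1014) and 171 to 3884 at s4 (median 241). In 6 s4 libraries it lay between 171 and 264 TPM, below every earlier library, against 1342 in s4 replicate 3 and 3884 in s4 replicate 4. The summed TPM of the 77 members followed it, from 2563 to 9693 in the s3 libraries and from 1329 to 1656 in the 6 s4 libraries, with 3973 in s4 replicate 3 and 7271 in s4 replicate 4.

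*Aqcoe7G080300* had the lowest fold change after the *MCT1* homolog. It spanned 82.5 to 228 TPM at s1 (median 141), 68.2 to 258 at s2 (median 132), 69.2 to 189.96 at s3 (median 165) and 20.9 to 95.4 at s4 (median 29.8). Only s4 replicate 3, at 95.4 TPM, reached the range of s3, and the other 7 ended at 38.7. Its log2 fold change was -1.84 (SE 0.31) and stayed between -2.21 and -1.75 over all alternatives. *Aqcoe6G248800*, a transcript of 222 bases and the shortest member, had 19.8 ± 9.66 and 8.95 ± 9.15 TPM at s3 and s4, with s4 replicate 4 at 29.9 TPM. *Aqcoe1G095500* and *Aqcoe2G112900* were more even at s4, the first with 92.5 ± 12.5 and 56.4 ± 12.4 TPM at s3 and s4 and the second with 88.8 ± 30.1 and 53.0 ± 10.97, and *Aqcoe7G278300* had 11.4 ± 3.22 and 7.34 ± 3.56.

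The limit of 0.65 cut through a continuum. The last members inside it were *Aqcoe3G299400*, *Aqcoe7G101800* and *Aqcoe5G088300*, each with an s4 mean of 64.8% of the lowest earlier mean. The first loci outside were *Aqcoe7G322700* at 65.1%, *Aqcoe6G293600* at 65.2% and *Aqcoe3G085900* at 65.2%.

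From s3 to s4 most markers of the meristem, the *EXS* homolog listed for the anther and, in part, the markers of the carpel also changed. Those of other organs and of the stomatal lineage mostly did not pass the test. The summed TPM of 7 floral meristem and *KNOX* genes, among them *AqKXL3*, which met the rule's conditions, ran from 1207 to 1707 at s1, from 588 to 1034 in s3 libraries and from 252 to 506 in those of s4, with 2 of 7 called lower from s3 to s4 and 6 of 7 lower at any fold. Unlike the members, this sum was already lower at s3 than in any s1 library. *AqLFY* made up most of the sum, with means of 1077, 604 and 312 TPM at s1, s3 and s4. The gene of the 7 that did not pass at any fold was *AqWUS*. Its mean was 7.27 ± 2.61 TPM at s3 and 6.64 ± 3.76 at s4 (log2 fold change -0.09, edgeR adjusted p 0.92). Of 4 identity genes listed for stamens and petals, 0 were called lower or higher with edgeR or DESeq2. An unadjusted p under 0.05 in the edgeR fit was reached by 1 of them, *AqAG1*. This gene is of the C class, as is *AqAG2* of the carpel list, so that it is not a petal gene. It also passed an adjusted p of 0.05 with edgeR (0.040, log2 fold change -0.49). The sums of the 4 were 844 to 1345 TPM at s3 and 757 to 989.9 at s4. *AqEXS*, listed for the anther by its Arabidopsis homolog alone, was higher at s4 (above). The member *Aqcoe1G136700*, with the same top hit, went the other way (log2 fold change -0.59), so that *AqEXS* is not taken as a measure of anther tissue. The 2 carpel genes summed to 33.6 to 46.2 TPM at s3 and 16.9 to 67.6 at s4, and the 2 stomatal genes to 7.18 to 18.7 and 7.15 to 20.6. Of the carpel genes *AqAG2* was called higher at s4 than at s3 (log2 fold change 1.56, edgeR adjusted p 0.0019), and the value for *AqCRC* was -0.03 (adjusted p 0.98). The sum of 7 heat-shock loci, which the study had selected on these libraries, was 113 to 314 TPM at s1, 409 to 1171 at s3 and 825 to 1790 at s4. From s3 to s4, 1 of the 7 was called lower and 0 higher with edgeR. In s4 replicates 3 and 4 the meristem sums were 506 and 309.7 TPM, within or just above the 252 to 471 of the other 6 libraries, and *AqEXS* was at 12.6 and 17.3 TPM, below the 27.1 to 50.7 of the others. The carpel sums of this pair, 30.9 and 16.9 TPM, were below the 39.3 to 67.6 of the other 6 as well. The part of these changes in the levels of the members was not tested.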

How the data were processed

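The deposited files hold, per library and per transcript, the estimated counts and the TPM that the authors obtained with kallisto 0.46.1 after trimming with Trim Galore 0.6.5 (Phred cutoff 20), against the *Aquilegia* × *coerulea* 'Goldsmith' 3.1 transcriptome. Estimated counts are not normalized between libraries, and TPM is scaled by the authors' tool to a fixed sum. Stages and replicate numbers came from the sample labels, and all 32 libraries were used. Reads that fit several transcripts are divided by estimate, which makes paralogs less certain. Transcript lengths are those of the deposited length column.

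Estimated counts were rounded and fitted with edgeR 4.0.16 (R 4.3.3, TMM, quasi-likelihood test) over all 20477 genes that exceeded 1 CPM in 1 library or more, with a term for each stage. P-values were adjusted over all of these genes by the Benjamini-Hochberg method. Fold changes are the later stage minus the earlier. Their standard errors (SE) were worked back from the test, as the size of the log2 fold change over the square root of the F statistic. No paper values were used, and the authors' tables gave only homolog names (0 of 24823 reference entries carried these locus identifiers). The fit was also run on simulated counts with planted changes. These counts had a common spread for all genes and no variation shared within stages, so that they do not bear on the spread of the members. The within-stage component is the first singular vector of log2 CPM (prior count 2) after removal of stage means. DESeq2 1.42.0 and the other alternatives are given in the closing section. Figures were drawn with matplotlib 3.10.9.

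Members named with values are the 10 with the lowest S4 relative to the lowest earlier mean, the 10 of highest S3, those listed by locus in the study's tables, the 3 of highest S3 in each keyword group, up to 5 neighbouring pairs and the 3 at the threshold; others are marked where they appear. The members, the lists and the tests were chosen with earlier results of these data known. The alternatives without s4 replicates 3 and 4 and with the within-stage component as a covariate were added after seeing the data.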

Additional observations from a re-analysis of the deposited data

Results flagged for a closer look

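In 156 sets of 8 libraries (39 named members at 4 stages), 28 had a highest or lowest library set apart from the rest. The gap was wider than Dixon's critical value for 8 values allows. Chance alone would give about 1 in 20 sets only for independent values with a normal distribution. The members share their libraries, and the untransformed TPM was skewed to high values in some sets. The rule also let a minority of s4 libraries stay within or above the s3 range, which favours such gaps at s4. The 28 sets are therefore not compared with a chance rate. Values are TPM.

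Highest at s4 was replicate 4 in *Aqcoe2G333100* (119), *Aqcoe3G114000* (24.5), *Aqcoe3G311800* (7.25), *Aqcoe3G341100* (3884), *Aqcoe4G269800* (486), *Aqcoe5G343100* (289) and *Aqcoe6G248800* (29.9). The same library was lowest at s4 in *Aqcoe1G441800* (20.4, the others 45.9 to 67.3), *Aqcoe2G353000* (7.19, the others 22.5 to 30.2) and *Aqcoe3G248000* (7.62, the others 19.4 to 29.1). Replicate 3 was highest at s4 in *Aqcoe2G112900* (78.0), *Aqcoe2G264600* (11.9) and *Aqcoe7G080300* (95.4), and replicate 6 in *Aqcoe3G111100* (6.74).

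Highest at s2 was replicate 7 in *Aqcoe1G095500* (139.8), *Aqcoe2G333100* (187), *Aqcoe3G114000* (36.8), *Aqcoe3G341100* (3655), *Aqcoe4G269800* (695), *Aqcoe5G157100* (109), *Aqcoe7G101800* (11.8) and *Aqcoe7G317600* (21.9), and replicate 6 in *Aqcoe3G111200* (14.2). At s3, replicate 7 was highest in *Aqcoe3G341100* (4301), *Aqcoe5G343100* (312) and *Aqcoe6G100200* (194). At s1, replicate 7 was highest in *Aqcoe2G270900* (36.9) and replicate 5 in *Aqcoe7G278300* (20.5).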

How the results depend on the processing

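The rule gave 52 members with TMM-normalized CPM in place of TPM, of which 46 were among the 77, 95 with an S3 of at least 1 TPM, 42 with 20 TPM, 13 with an S4 of at most 0.5 times the lowest mean and 14 with all 8 s4 libraries below s3. Leaving out 1 library gave 25 (without s4 replicate 1) to 105 (without s4 replicate 4, 58 of them among the 77) members. Without any 1 of s4 replicates 1, 2, 5, 6, 7 and 8 the count was 25 to 40, since 6 of the 7 remaining s4 libraries had then to lie below s3. Without both s4 replicates 3 and 4 it was 128, with 59 of the 77.

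Calls lower from s3 to s4 (10) ran from 6 (without s3 replicate 7) to 30 (without s4 replicate 4) when 1 library was left out, those from s1 to s4 (28) from 22 to 48 and those from s2 to s4 (22) from 16 to 43, the highest each time without s4 replicate 4. With the within-stage component as a covariate they were 21, 44 and 37, without s4 replicates 3 and 4 they were 39, 54 and 47, and without a fold threshold 47, 59 and 55. In the 7 other alternatives to the test, counts, normalization, filter, samples and block, each stayed within 1.5 times. The single call higher from s1 to s3 was 1 in all of its 42 alternatives. The median change from s3 to s4 kept between -1.03 and -0.62 throughout. The r of the members' mean deviation with the component was 0.91 over 32 libraries and 0.96 over the 24 of s1, s2 and s3. All of 1521 alternative values for the 39 named members were negative. The rule had nearly fixed this sign in advance, and most alternatives left out a single library, so that nothing is read from it. Among these values 12 lost a call (3 members) and 27 gained one (11 members).

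With the replicate number as a block the calls were 11, 34 and 26. The numbers share no stated origin: same-numbered libraries of different stages correlated from -0.46 to 0.62 after removal of stage means, with 17 of 48 pairs over 0.1, and 5 of 32 libraries correlated best with their own number, so that no pairing was used. Counting error bears most on members with an S3 near 5 TPM, and its part in their spread was not tested.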
